A study of Mus musculus with 16 samples.

Results

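The genes described are 10 genes of heme and iron handling, namely Hmox1, Slc48a1, Fth1, Ftl1, Tfrc, Slc40a1, Flvcr1, Fech, Alas1 and Bach1. They were taken by symbol from the 33072 genes of the deposited table, of which 32832 carried a symbol in the GENCODE M21 annotation of the mouse genome GRCm38, and all 10 were found. The members were chosen by name as genes of this pathway and selected on the measured CIX responses of Hmox1 and Slc48a1, so the CIX values of the members, and the differences between lines built from them, are a description and carry no test. The samples are RNA of metastatic 4T1 and non-metastatic 67NR cells, lines that were both grown out of 1 spontaneous mammary tumor of a BALB/c mouse. All cells were kept in medium with 10% serum and received either vehicle (DMSO) or CIX, an inhibitor of the cytosolic phospholipase A2 alpha that frees arachidonic acid from membranes, at 15 µM for 24 h. This gave 4 groups, vehicle treated and CIX treated cells of each line, with 4 biological replicates in each and 16 samples in all, and vehicle treated cells are also called untreated. The sources used here describe no deleted or introduced gene in any group, and each line stands for 1 tumor of 1 strain.

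Heme is built from glycine and succinyl-CoA by a chain of enzymes that begins with ALAS1 and ends with FECH, which inserts iron. It enters the cytosol from endosomes and lysosomes through SLC48A1 (HRG1), leaves cells through FLVCR1, and is broken down by heme oxygenase 1, the product of Hmox1, into biliverdin, carbon monoxide and iron. BACH1 is a heme-binding repressor that holds Hmox1 and ferritin genes down. Iron is taken up as transferrin through the receptor encoded by Tfrc, stored in ferritin built from the heavy chain of Fth1 and the light chain of Ftl1, and exported by ferroportin, the product of Slc40a1. The fate of several of these mRNAs depends on the iron-responsive element (IRE), a stem loop bound by iron regulatory proteins when iron is low. An IRE in the 5′ UTR then blocks translation, and IREs in the 3′ UTR protect the mRNA from decay.

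IREs are shown because they divide the members into a storage and export group and an uptake gene. The GENCODE transcripts were searched on the sense strand for a C, 5 bases, the loop CAGTG followed by any base but G, and 5 bases able to pair with the first 5, G-T pairs included. Of the 10 members, 4 held a match in a UTR. The capitals mark the loop, each sequence is 27 bases long and runs 5′ to 3′, and positions are on GRCm38. In the 5′ UTR the match of Fth1 lies at chr19:9982733-9982759 on the plus strand, that of Ftl1 at chr7:45459780-45459806 on the minus strand and that of Slc40a1 at chr1:45925466-45925492 on the minus strand.
Fth1: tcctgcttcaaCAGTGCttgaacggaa
Ftl1: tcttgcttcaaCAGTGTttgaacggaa
Slc40a1: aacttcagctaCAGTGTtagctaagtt
Tfrc held 4 matches, all in the 3′ UTR in its last exon on the plus strand, at chr16:32631220-32631246, chr16:32631599-32631625, chr16:32631664-32631690 and chr16:32631711-32631737, in this order.
Tfrc element 1: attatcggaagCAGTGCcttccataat
Tfrc element 2: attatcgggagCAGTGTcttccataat
Tfrc element 3: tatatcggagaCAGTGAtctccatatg
Tfrc element 4: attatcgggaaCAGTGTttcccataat
Such a match was present in the 5′ UTR of 23 of 20916 genes (0.11%) and in the 3′ UTR of 100 of 21045 genes (0.475%). A match is a description of the sequence, and mRNA counts do not show translation.

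The total estimated count lay between 21715700 and 29450629 per sample, and levels are given as CPM, the share of the counts of a library on a fixed scale, after TMM scaling over all 16 samples. A count of 3, taken as the smallest detected level, corresponded to between 0.107 and 0.137 CPM, which covers counting error only. Replicates of a group correlated with each other at a Spearman rho between 0.964 and 0.991 across genes, which are not independent replicates. In vehicle, 5 of 6 epithelial markers reached 1 CPM in 4T1 and their summed level was 2976 to 3246 CPM, against 1.83 to 5.71 CPM in 67NR, where Cdh1, Epcam, Krt14 and Cldn4 stayed below 1 CPM. With CIX the sum was 3086 to 3339 CPM in 4T1 and 1.07 to 3.92 CPM in 67NR, and in 4T1 Epcam read 312 to 318 CPM with vehicle and 175 to 203 CPM with CIX, Krt14 0.388 to 0.655 and 1.29 to 4.53 CPM, Krt18 1016 to 1112 and 1173 to 1231 CPM, and Krt8 443 to 710 and 658 to 924 CPM. In 4T1 Krt8, Cdh1 and Cldn4 overlapped between vehicle and CIX. The 6 mesenchymal markers summed to 1026 to 1172 CPM in 4T1 and 4753 to 5714 CPM in 67NR with vehicle, and to 2450 to 2833 and 7587 to 8627 CPM with CIX, and nearly all of each sum was Vim, at 1022 to 1171 CPM in 4T1 with vehicle and 2448 to 2833 CPM with CIX. In 4T1 Cdh2, Col3a1, Pdgfrb and Zeb1 stayed below 1 CPM, and in 67NR Pdgfrb ran from 41.9 to 60.3 CPM with vehicle and from 28.7 to 34.9 CPM with CIX, Zeb1 from 50.7 to 64.2 and from 64.8 to 74.4 CPM, and Cdh2 from 142 to 168 and from 161 to 195 CPM. Macrophages recycle heme iron, and of 6 of their markers Adgre1 was at 0 in all samples and Csf1r and Spi1 stayed below 1 CPM. Ptprc ran from 0.948 to 1.44 CPM in 4T1 with vehicle and Lyz2 from 1.23 to 2.02 CPM in 67NR with vehicle, and with CIX Ptprc stayed below 1 CPM and Lyz2 reached at most 1.24 CPM. Cd68, which also marks lysosomes, ran from 51.4 to 87.6 CPM with vehicle and from 132 to 198 CPM with CIX in 4T1, and from 7.58 to 11.8 and from 34.5 to 40.4 CPM in 67NR. Of 6 erythroid markers, Hbb-bt was at 0 throughout, and in 67NR Hba-a1 and Hba-a2 were counted and the list summed to 8.26 to 10.7 CPM with vehicle and 12.6 to 19.2 CPM with CIX. The 4 endothelial markers summed to at most 2.78 CPM. The part of these marker levels in the values of the heme and iron genes was not tested.

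The ferritin chains were by far the most abundant members in every group. Levels of different genes are compared here in TPM, which divides the counts by transcript length. Vehicle treated 4T1 cells held 2760.1 ± 305 TPM of Ftl1 and 2547 ± 826 TPM of Fth1 (mean ± SD, n = 4), followed by Tfrc at 448 ± 169.7, Hmox1 at 98.1 ± 21.9 and Alas1 at 79.5 ± 3.24 TPM. In vehicle treated 67NR cells the order was different below the ferritins. Fth1 stood at 5176 ± 625 TPM and Ftl1 at 2941 ± 405 TPM, followed by Slc48a1 at 143 ± 21.6, Tfrc at 44.2 ± 4.02 and Fech at 27.8 ± 3.71 TPM, whereas Hmox1 was at 11.8 ± 1.45 TPM. By mean TPM, Ftl1 ranked 2 among the 32832 genes in CIX treated 4T1 cells and Fth1 ranked 6. With vehicle in 4T1 they ranked 26 and 34.

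**Figure D1:**
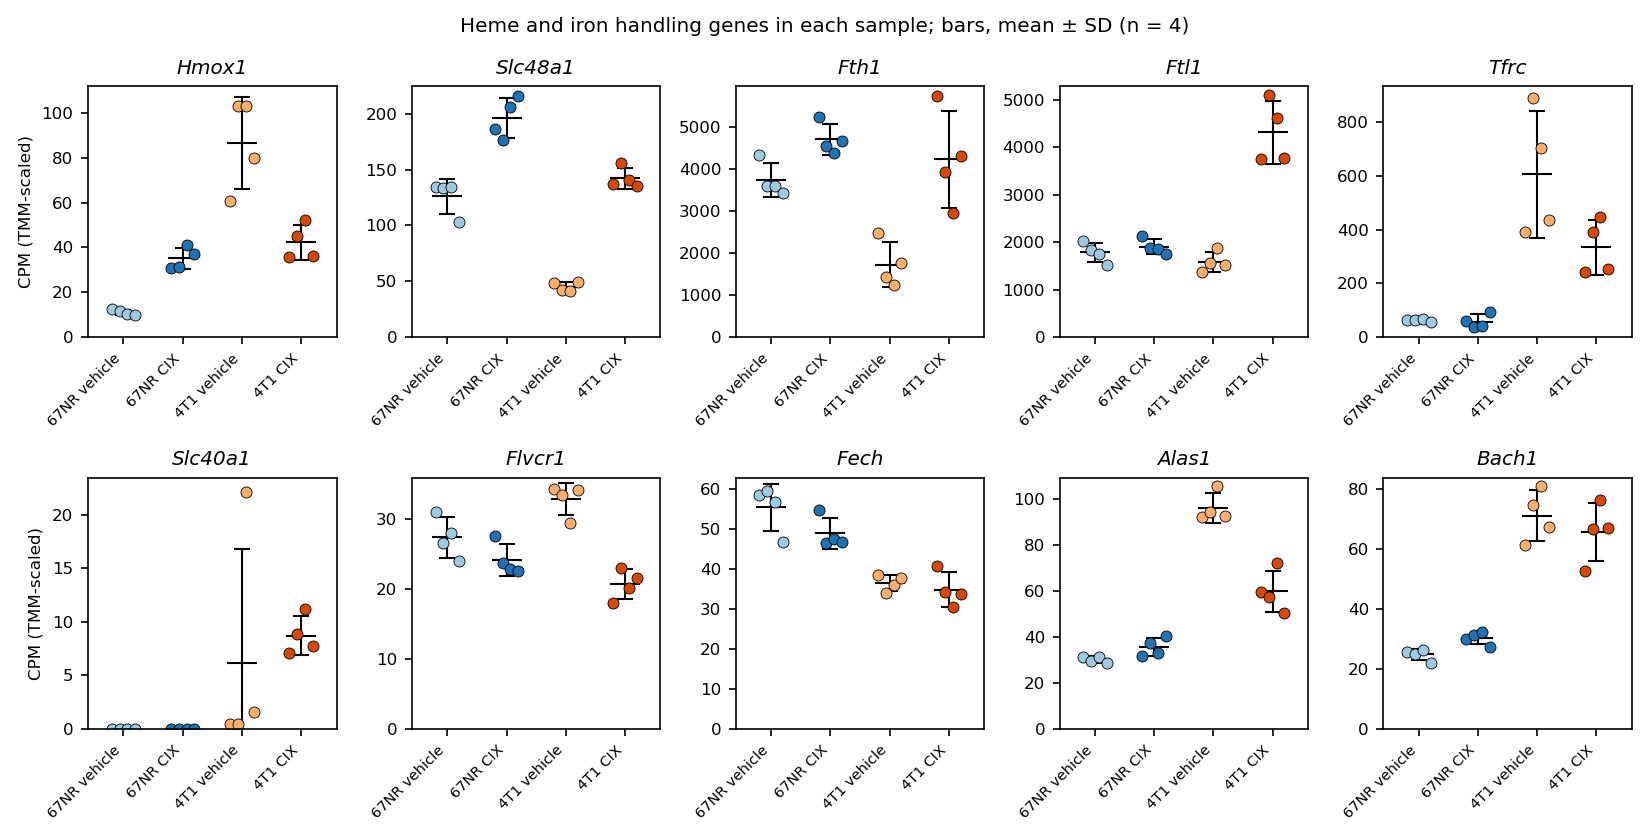
Level of each of the 10 genes in CPM after TMM scaling (vertical axes from 0) in vehicle and CIX treated 67NR and 4T1 cells, with 1 point per sample, a horizontal line at the mean and bars of 1 SD (n = 4; the Slc40a1 bar runs below 0 and is cut there). Hmox1 is lower with CIX in 4T1 and higher with CIX in 67NR, Ftl1 stands out in CIX treated 4T1 cells alone, and Slc40a1 shows 1 vehicle sample of 4T1 at 22.1 CPM with all 67NR samples at 0.

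With CIX, Hmox1 read lower than its vehicle in 4T1 and higher in 67NR. Hmox1 (ENSMUSG00000005413, GRCm38 chr8:75093621-75100589, plus strand) measured 60.6, 103, 103 and 79.9 CPM in the 4 vehicle treated 4T1 samples and 35.9, 44.9, 52.3 and 36.1 CPM in the CIX treated ones. Every CIX sample lay below every vehicle sample, and the log2 fold change was -1.03 ± 0.20 (SE). In 67NR it measured 12.4, 11.4, 10.3 and 9.83 CPM with vehicle and 30.9, 31.2, 40.9 and 37.3 CPM with CIX. Here every CIX sample lay above every vehicle sample, with a log2 fold change of 1.64 ± 0.13. In bulk RNA, fewer cells that use a gene and less of its RNA in each cell cannot be told apart. The response in 4T1 minus that in 67NR came to -2.68 ± 0.27 on the log2 scale, a description for this gene because its responses put it on the list. Over the 4 groups Hmox1 was highest in 4T1 with vehicle, lowest in 67NR with vehicle, and the CIX groups of both lines lay between and overlapped each other. The fold change in 67NR stayed between 1.56 and 1.72 on the log2 scale when any 1 sample was left out.

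The untreated lines were compared by limma-voom with Benjamini-Hochberg adjustment over all 11037 genes tested. This contrast shares its vehicle samples with the CIX responses, so for Hmox1 and Slc48a1, which were listed for those responses, it is given as a description. With vehicle Hmox1 was 7.65 times as high in 4T1 as in 67NR, a log2 fold change of 2.93 ± 0.21. All 4 samples of 4T1 lay above all 4 of 67NR.

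Slc48a1 was higher with CIX in both lines, and further so in 4T1. Slc48a1 (ENSMUSG00000081534, GRCm38 chr15:97778520-97792692, plus strand), which carries heme out of endosomes and lysosomes, measured 48.1, 41.7, 41.3 and 49.1 CPM in vehicle treated and 137, 156, 141 and 135 CPM in CIX treated 4T1 samples. The log2 fold change was 1.64 ± 0.10, or 3.12-fold. In 67NR it measured 134, 133, 134 and 103 CPM with vehicle and 186, 176, 206 and 216 CPM with CIX, a log2 fold change of 0.62 ± 0.10. In both lines all CIX samples stood above all vehicle samples. The responses differed by 1.02 ± 0.15 on the log2 scale, again a description. The order of the groups was 67NR with CIX, 4T1 with CIX, 67NR with vehicle and 4T1 with vehicle, and no neighbours in that order overlapped. With vehicle Slc48a1 was lower in 4T1 than in 67NR with a log2 fold change of -1.49 ± 0.11, the opposite side from Hmox1.

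The 2 ferritin genes both read higher with CIX in 4T1, and in 67NR the log2 fold changes were small. Fth1 (ENSMUSG00000024661, GRCm38 chr19:9980598-9985098, plus strand), the heavy chain with ferroxidase activity, measured 2474, 1417, 1239 and 1761 CPM in vehicle treated and 5735, 3916, 2942 and 4294 CPM in CIX treated 4T1 samples. The lowest CIX sample stood above the highest vehicle sample, and the log2 fold change was 1.28 ± 0.24. In 67NR it measured 4316, 3585, 3596 and 3415 CPM with vehicle and 5229, 4538, 4364 and 4656 CPM with CIX, with a log2 fold change of 0.32 ± 0.08. These 67NR groups did not overlap either, though the highest vehicle sample, sample 1, came close to the lowest CIX sample, sample 10. The response in 4T1 minus that in 67NR was 0.96 ± 0.27.

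Ftl1 read higher with CIX in 4T1, whereas its groups overlapped in 67NR. Ftl1 (ENSMUSG00000050708, GRCm38 chr7:45457944-45459884, minus strand), the light chain that promotes iron core formation, measured 1377, 1557, 1877 and 1508 CPM in vehicle treated and 3746, 5101, 4616 and 3769.9 CPM in CIX treated 4T1 samples, a log2 fold change of 1.43 ± 0.13 or 2.69-fold. In 67NR the samples ran 2021, 1829, 1757 and 1517 CPM with vehicle and 2122, 1884, 1863 and 1748 CPM with CIX. Those groups overlapped, with a log2 fold change of 0.08 ± 0.09. The response in 4T1 minus that in 67NR was 1.34 ± 0.17 on the log2 scale. CIX treated 4T1 cells stood above the other 3 groups, which overlapped their neighbours.

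In untreated cells Fth1, but not Ftl1, passed the test between the lines. Fth1 was lower in 4T1 than in 67NR with a log2 fold change of -1.17 ± 0.20 (adjusted p = 0.000571, limma-voom), and Ftl1 showed -0.19 ± 0.11 (adjusted p = 0.151). Without any 1 sample the Fth1 value lay between -1.32 and -0.98, and the call was lost without 4T1 vehicle sample 7, 11 or 15 (adjusted p up to 0.00279, limma-voom) or without 67NR vehicle sample 1, 5 or 9. It was also lost with edgeR and on log2(TPM + 1). The ratio of Fth1 to Ftl1 in TPM was 1.65 to 1.90 in vehicle treated 67NR and 0.556 to 1.51 in vehicle treated 4T1 samples, ranges that did not overlap. With CIX the ratio was 1.97 to 2.24 in 67NR and 0.537 to 1.29 in 4T1. Of the 31-base words in the transcripts of Ftl1, 57.7% also occurred in other genes, 30 in number of which 17 were pseudogenes, and for Fth1 the share was 3.24% with 3 pseudogenes. Adding the counts of those sharing genes that were counted in the table raised the Ftl1 sum by at most 0.207% of it and the Fth1 sum by at most 0.0117%, and how reads were divided between them was not tested.

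Tfrc and Hmox1 showed the largest differences between the untreated lines among the tested members, and whether these 2 values differed was not tested. Tfrc (ENSMUSG00000022797, GRCm38 chr16:32608920-32632794, plus strand) encodes transferrin receptor 1 and carries the 3′ UTR elements printed above. It measured 391, 893, 704 and 436 CPM in vehicle treated 4T1 and 64.3, 65.1, 66.1 and 57.6 CPM in vehicle treated 67NR samples, and the log2 fold change between the lines was 3.17 ± 0.25 or 8.99-fold (adjusted p = 5.02e-06, limma-voom). With CIX it measured 243, 393, 449 and 253 CPM in 4T1, with a log2 fold change of -0.84 ± 0.29 against vehicle. The CIX and vehicle samples of 4T1 overlapped. In 67NR with CIX it measured 58.9, 35.7, 42.0 and 94.4 CPM, a wider spread than with vehicle on both sides of the vehicle samples, and the log2 fold change was -0.25 ± 0.25. The response in 4T1 minus that in 67NR was -0.59 ± 0.44. Within vehicle treated 4T1 cells the samples with the 2 highest Tfrc levels, samples 7 and 11, had the 2 lowest Fth1 levels, and samples 3 and 15 stood the other way around. The same held in CIX treated 4T1 cells, where samples 8 and 12 were high for Tfrc and low for Fth1. Samples 7 and 8, and 11 and 12, lie in the same sets of consecutive numbers, so the pattern in CIX treated cells is not counted as a separate one. This order was noticed after the values were seen and was not tested.

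Slc40a1 was counted in 4T1 alone. Slc40a1 (ENSMUSG00000025993, GRCm38 chr1:45908068-45926523, minus strand), the only known exporter of iron from cells, had 0 counts in all 8 samples of 67NR, where 3 counts would correspond to between 0.116 and 0.137 CPM. In vehicle treated 4T1 cells it measured 0.412, 0.437, 22.1 and 1.52 CPM, from 10, 10, 514 and 37 counts, and with CIX 7.08, 8.80, 11.2 and 7.69 CPM. Vehicle sample 11 stood above all CIX samples and the other 3 stood below them. The log2 fold change was 2.40 ± 0.91 with all samples and 3.65 without vehicle sample 11. With edgeR it was 0.49 with all samples and with DESeq2 0.48. The gene fell below the level filter in the comparison of untreated lines and in 67NR, so neither was tested.

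Alas1 and Fech encode the first and the last enzyme of heme synthesis. Alas1 (ENSMUSG00000032786, GRCm38 chr9:106233455-106248654, minus strand), the rate-limiting first enzyme outside red cells and one that heme represses, measured 91.9, 94.2, 105 and 92.2 CPM in vehicle treated and 59.2, 57.4, 71.8 and 50.2 CPM in CIX treated 4T1 samples. The CIX samples lay below the vehicle samples, with a log2 fold change of -0.71 ± 0.12. In 67NR it measured 31.2, 29.5, 31.1 and 28.4 CPM with vehicle and 31.4, 37.1, 32.8 and 40.4 CPM with CIX, all CIX samples above all vehicle samples by a small distance, with a log2 fold change of 0.21 ± 0.09. The response in 4T1 minus that in 67NR was -0.92 ± 0.15, and lay between -1.01 and -0.84 when any 1 sample was left out. With vehicle Alas1 was 3.16 times as high in 4T1 as in 67NR, a log2 fold change of 1.66 ± 0.08 (adjusted p = 3.23e-07, limma-voom). The 4 groups did not overlap between neighbours.

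Fech (ENSMUSG00000024588, GRCm38 chr18:64452914-64490251, minus strand) closes the pathway in the mitochondrion. Its range was 34.0 to 38.4 CPM in vehicle treated and 30.4 to 40.8 CPM in CIX treated 4T1 samples, and 46.6 to 59.6 and 46.5 to 54.7 CPM in 67NR, so that vehicle and CIX overlapped in both lines. The log2 fold changes with CIX were -0.10 ± 0.12 in 4T1 and -0.19 ± 0.09 in 67NR. Untreated 4T1 cells held less of it than untreated 67NR cells, with a log2 fold change of -0.61 ± 0.10 (adjusted p = 0.000379, limma-voom). The call was lost without 4T1 vehicle sample 7, 11 or 15 or 67NR vehicle sample 1, 5 or 9, where the adjusted p reached 0.00240 (limma-voom) and the value stayed between -0.73 and -0.53. It was also lost with library size as the only scaling, on log2(TPM + 1) and with a block by sets of consecutive sample numbers. Of its 31-base words, 5.91% occur in other genes.

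Flvcr1 (ENSMUSG00000066595, GRCm38 chr1:191005847-191026158, minus strand), the heme exporter of the plasma membrane, measured 34.4, 33.4, 29.5 and 34.1 CPM in vehicle treated and 18.0, 23.0, 20.2 and 21.6 CPM in CIX treated 4T1 samples. No CIX sample reached the lowest vehicle sample, and the log2 fold change was -0.69 ± 0.12. In 67NR the ranges were 24.0 to 31.1 CPM with vehicle and 22.6 to 27.5 CPM with CIX and overlapped, with a log2 fold change of -0.20 ± 0.10. The response in 4T1 minus that in 67NR was -0.49 ± 0.15. Untreated 4T1 against 67NR was 0.25 ± 0.10, which did not pass the threshold (adjusted p = 0.0520, limma-voom).

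Bach1 (ENSMUSG00000025612, GRCm38 chr16:87698945-87733346, plus strand), the repressor, measured 61.3, 74.7, 81.0 and 67.5 CPM in vehicle treated 4T1 and 25.7, 25.1, 26.3 and 22.0 CPM in vehicle treated 67NR samples. It was higher in untreated 4T1 by a log2 fold change of 1.50 ± 0.11 (adjusted p = 2.43e-06, limma-voom). Hmox1 mRNA was also higher in that line, and a link between them was not tested. With CIX the ranges were 52.6 to 76.3 CPM in 4T1, overlapping vehicle, and 27.4 to 32.3 CPM in 67NR, above vehicle. The log2 fold changes were -0.14 ± 0.14 in 4T1 and 0.27 ± 0.08 in 67NR, and their difference was -0.41 ± 0.17.

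**Figure D2:**
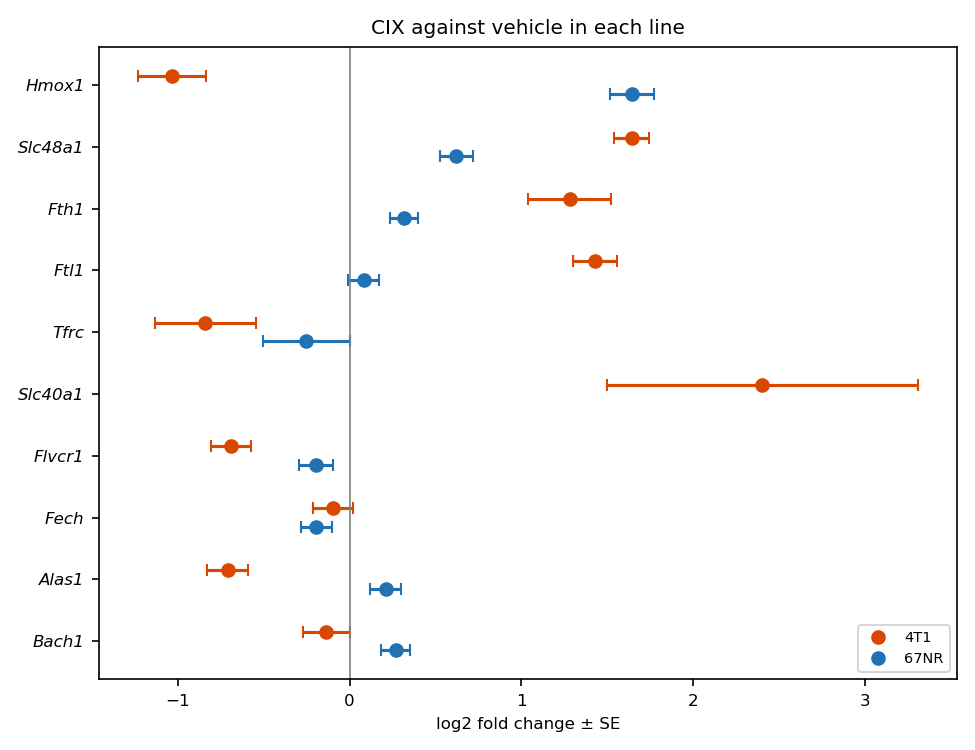
Log2 fold change of CIX against vehicle (horizontal axis, points with SE) for each gene in 4T1 and 67NR (limma-voom, 4 samples of each group). Hmox1 lies at -1.03 in 4T1 and 1.64 in 67NR, Slc48a1, Fth1 and Ftl1 lie above 1 in 4T1, and Slc40a1 has no 67NR point because it had no counts there.

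Counted over the list, 2 of the 10 members, Slc48a1 and Ftl1, were called in 4T1 with CIX, where 9.31% of all 11660 tested genes were called (5.34% higher and 3.97% lower), and 1 of 9 tested members, Hmox1, was called in 67NR, where 0.389% of 11558 genes were (0.182% higher and 0.208% lower). The members were listed with these responses known, so nothing is read from these counts. The median log2 fold change of the tested members was -0.12 in 4T1 and 0.21 in 67NR, beside -0.01 and -0.01 for all genes tested. Vehicle and CIX groups did not overlap for 6 members in 4T1, 3 in each direction, where 39.9% of all tested genes were so separated (21.2% higher and 18.7% lower), and for 5 members in 67NR, all higher with CIX, where 23.3% were (12.7% higher). The difference of the responses is built from the same values, and nothing is read from its count of 4 members, Slc48a1 and Ftl1 with higher and Hmox1 and Alas1 with lower values in 4T1, beside 7.86% of 12609 genes (4.81% higher and 3.05% lower).

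Between the untreated lines 7 of 9 tested members were called, beside 40.0% of the 11037 genes tested (20.4% higher and 19.6% lower). The samples of both lines did not overlap for any of these 7, beside 61.6% of the genes tested. Hmox1, Tfrc, Alas1 and Bach1 were higher in 4T1 and Slc48a1, Fth1 and Fech were lower. The median log2 fold change of the members was 0.25, beside -0.01 for all genes tested. For Hmox1 and Slc48a1 these calls are a description, and the tested members are those that passed the level filter.

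**Figure D3:**
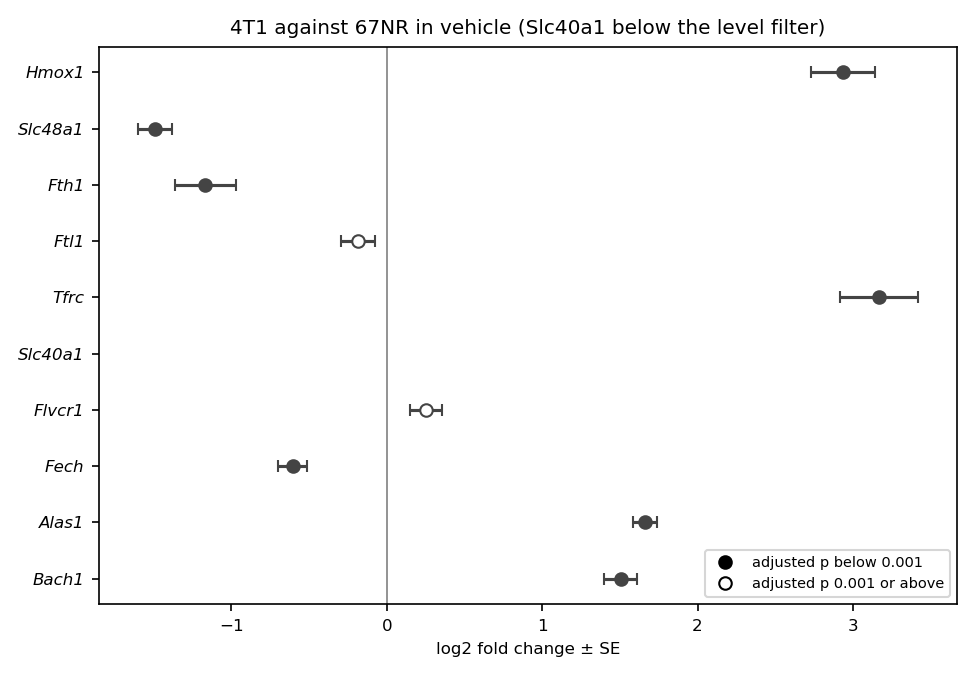
Log2 fold change of vehicle treated 4T1 against vehicle treated 67NR cells (horizontal axis, points with SE, 4 samples of each line) for each gene, with filled points for an adjusted p below 0.001 (limma-voom). Tfrc at 3.17 and Hmox1 at 2.93 lie farthest to the right, Slc48a1 at -1.49 farthest to the left, and Slc40a1 was below the level filter. For Hmox1 and Slc48a1 the fill is a description.

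The rest of the pathway was read from 6 lists with 82 genes. These lists were chosen with earlier results of these data known. The calls and adjusted p values of their genes, in every comparison, are therefore a description. With CIX in 4T1, 6 of 66 tested list genes passed the threshold, 4 higher and 2 lower, against the 9.31% of all genes, and the median log2 fold change was 0.08. Cpox, which acts between ALAS1 and FECH in heme synthesis, stood at 4.64 ± 1.61 CPM with vehicle (mean ± SD, n = 4) and rose to 34.6 ± 4.90 CPM, which is 2.93 ± 0.24 on the log2 scale (adjusted p = 6.52e-05, limma-voom). It was the only 1 of 11 tested heme synthesis genes that limma-voom called, and edgeR called 1 and DESeq2 6 of them, beside 1030 and 3095 of all 11660 genes. Among 11 tested genes of iron uptake and release, Steap1, of a family of metalloreductases, rose by 1.22 ± 0.14 on the log2 scale and Slc25a28, a mitochondrial iron carrier, by 1.04 ± 0.12. Cp, the ferroxidase ceruloplasmin that works with ferroportin, stood at 304 ± 25.7 CPM with vehicle and fell to 116 ± 37.2 CPM, with a log2 fold change of -1.47 ± 0.21. Among 14 genes around BACH1 and NRF2, Nqo1, a quinone reductase and NRF2 target, stood at 4.34 ± 2.07 CPM with vehicle and rose to 24.8 ± 3.23 CPM, with a log2 fold change of 2.58 ± 0.26 (adjusted p = 0.000134, limma-voom). Mafk, a small Maf protein that pairs with BACH1 and NRF2, fell with a log2 fold change of -0.74 ± 0.10.

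No gene was called in 4T1 by limma-voom among 10 of heme breakdown, binding and transport, 7 of iron storage and sensing and 13 of iron-sulfur cluster assembly. Of these, 6, 6 and 9 had an unadjusted p under 0.05, edgeR called 0, 0 and 1, and DESeq2 called 2, 3 and 6. Of all 11660 genes tested, 5963 had an unadjusted p under 0.05, and the calls of both tools over all genes are those given for heme synthesis. In fits without 1 sample, Cpox and Nqo1 were called in 8 of 8, Slc25a28 in 4, Steap1 in 2, and Cp and Mafk in 1 each.

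With CIX in 67NR, 1 of 64 tested list genes passed, beside 0.389% of all genes, and the list median was 0.06. That gene was Cp, which stood at 232 ± 21.7 CPM with vehicle and fell to 81.3 ± 15.9 CPM, with a log2 fold change of -1.55 ± 0.13 (adjusted p = 0.000530, limma-voom), and which was called in 2 of 8 fits without 1 sample. In the other 5 lists none was called by limma-voom. In all 6 lists 29 genes had an unadjusted p under 0.05, edgeR called 1 and DESeq2 called 10, beside 3795, 46 and 1040 of all 11558 genes tested.

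**Figure D4:**
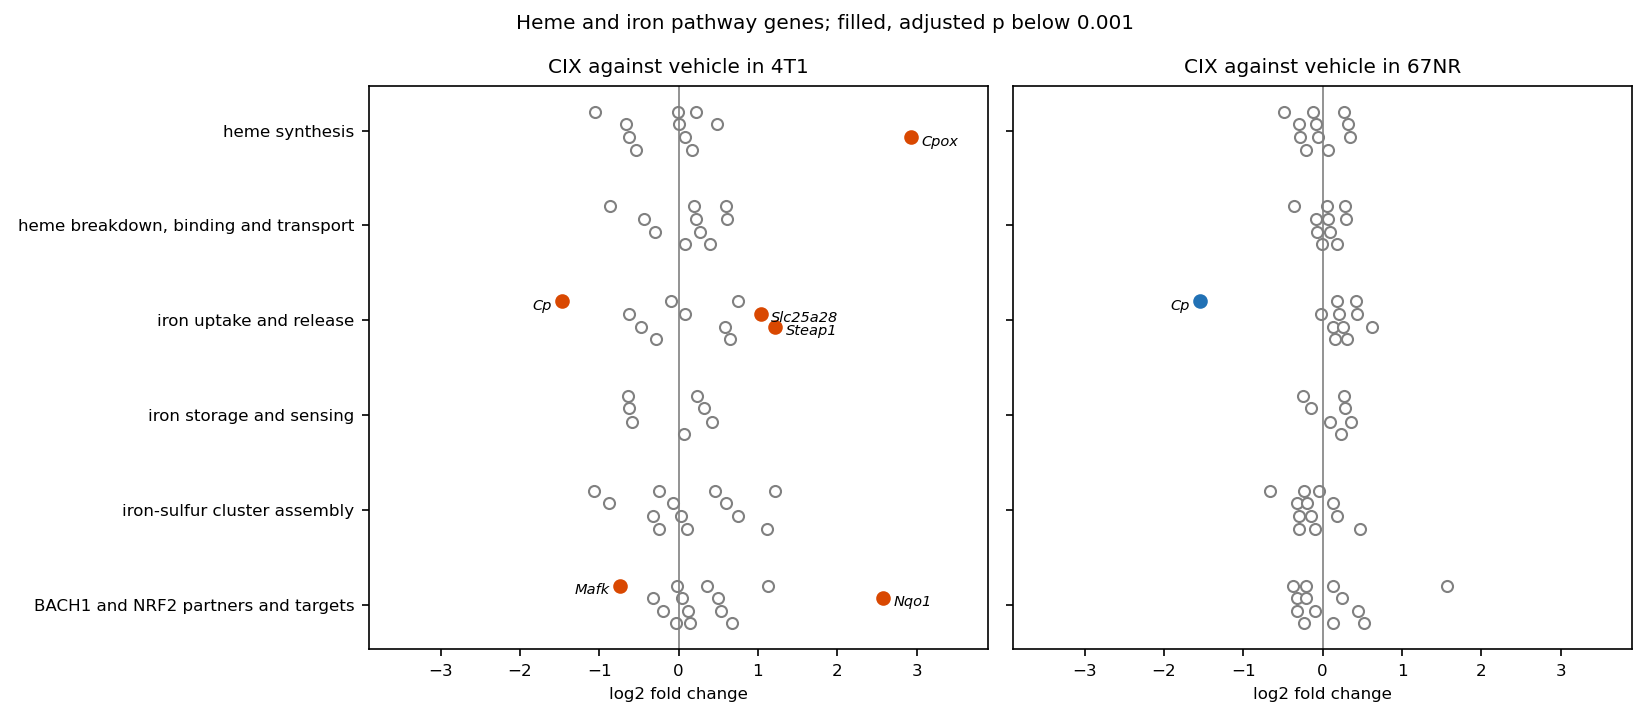
Log2 fold change of CIX against vehicle (horizontal axes) for each tested gene of 6 heme and iron pathway lists (rows; points are set at different heights within a row only to keep them apart) in 4T1 and 67NR cells. Filled, named points passed an adjusted p of 0.001 (limma-voom), 6 in 4T1 with Cpox at 2.93 farthest out and 1 in 67NR, Cp at -1.55. The fill is a description, because the lists were chosen with earlier results of these data known.

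The difference of the CIX response between the lines passed for 6 of 69 tested list genes, beside 7.86% of all genes, with a list median of 0.07. It was higher in 4T1 for Cpox by 2.65 ± 0.25, Nqo1 by 2.34 ± 0.30, Lyrm4, a partner of the cysteine desulfurase of iron-sulfur assembly, by 1.25 ± 0.23, Slc25a28 by 0.85 ± 0.14 and Pgrmc1, a heme-binding membrane protein, by 0.68 ± 0.13. The sixth, Slc39a8, a carrier of zinc, manganese and iron, read lower in 4T1. In 4T1 it missed the level filter through its CIX samples, with a mean of 1.61 TPM with vehicle and 0.0453 TPM with CIX. It entered the fit through its level in 67NR, so its call is a description for this reason as well. The size of its difference depends on the scale, at -6.11 on the log2 scale in this fit and -1.74 on log2(TPM + 1). Slc39a8 ran 4.01 to 4.27 CPM with vehicle and 0 to 0.282 CPM with CIX in 4T1, the latter partly under 3 counts, and 3.87 to 4.72 and 6.12 to 7.26 CPM in 67NR. In 16 fits without 1 sample, Cpox, Nqo1 and Slc39a8 were called in all 16, Slc25a28 in 7, Lyrm4 in 2 and Pgrmc1 in 1. No gene of iron storage and sensing was called (limma-voom), where 3 of 7 had an unadjusted p under 0.05, edgeR called 0 and DESeq2 called 1, beside 4934, 1013 and 1977 of all 12609 genes tested.

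Between the untreated lines 27 of 66 tested list genes passed, 12 higher and 15 lower in 4T1, beside 40.0% of all genes. In heme synthesis Clpx, a chaperone that acts on ALAS, was higher by 1.46 ± 0.11, and Cpox and Uros were lower with log2 fold changes of -2.43 ± 0.22 and -1.83 ± 0.27. In heme breakdown and transport Hmox2, the constitutive heme oxygenase, was higher by 1.25 ± 0.13 on the log2 scale, on the same side as Hmox1, and Lrp1, a receptor for hemopexin, Blvrb, a biliverdin reductase, and Pgrmc1 were lower, with log2 fold changes of -1.72 ± 0.24, -1.62 ± 0.14 and -0.93 ± 0.10. Among genes of iron uptake and release Lcn2, a siderophore-binding protein, ran 255 to 1308 CPM in 4T1 and 0.356 to 1.35 CPM in 67NR, a log2 fold change of 9.31 ± 1.14. The mitochondrial carrier Slc25a37 was higher by 1.27 ± 0.18 and the endolysosomal channel Mcoln1 by 0.77 ± 0.14. The endosomal iron reductase Steap3, the divalent metal transporter Slc11a2 and Slc25a28 were lower, with log2 fold changes of -1.32 ± 0.12, -1.10 ± 0.16 and -0.94 ± 0.11.

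In iron storage and sensing Ireb2, which encodes iron regulatory protein 2, was higher in untreated 4T1 by 0.99 ± 0.14 on the log2 scale (adjusted p = 0.000221, limma-voom). The iron chaperone Pcbp2 and the glutaredoxin Glrx3 were lower, with log2 fold changes of -0.67 ± 0.10 and -0.62 ± 0.07. In iron-sulfur assembly Fdx1, a ferredoxin, measured 35.5 ± 1.13 CPM in 4T1 and 0.789 ± 0.434 CPM in 67NR, a log2 fold change of 5.57 ± 0.26. Ciao1 and Nfs1 were higher by 0.76 ± 0.12 and 0.61 ± 0.08, and Lyrm4 and the scaffold Iscu were lower with -1.12 ± 0.15 and -0.52 ± 0.09. Around BACH1 and NRF2, the cystine transporter Slc7a11 was higher by 4.44 ± 0.50, Mafk by 1.51 ± 0.07 and Nfe2l1 by 0.42 ± 0.07, whereas Srxn1, Gclc and Nfe2l2, which encodes NRF2, were lower with log2 fold changes of -1.12 ± 0.12, -1.05 ± 0.09 and -0.82 ± 0.08. Lcn2, Fdx1 and Slc7a11 had 67NR vehicle samples under 1 TPM and entered the fit mainly through their level in 4T1. For this reason as well their calls are a description. Between the untreated lines 27 list genes are named, and 18 of them were called in all 8 fits without 1 sample. Ireb2 and Slc11a2 were called in 7, Uros and Nfs1 in 6, Ciao1 and Pcbp2 in 4, Nfe2l1 in 3, Iscu in 2 and Mcoln1 in 1.

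Over all 16 samples, the 5 genes whose log2(CPM + 0.5) followed that of Hmox1 most closely among the 12609 genes of the interaction fit were Mex3d (Pearson r = 0.965), Fads1 (0.963), Tmed4 (0.959), Aff4 (0.955) and Slc17a5 (0.954). Among the members Alas1 was closest to Hmox1 with r = 0.879, followed by Bach1 with 0.848 and Tfrc with 0.773, whereas Fech lay at -0.774, Fth1 at -0.599 and Slc48a1 at -0.538. These values describe 16 samples that share cell lines and treatments.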

How the data were processed

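Poly-A RNA of 16 samples was sequenced from strand-specific libraries on 1 flow cell. The authors quantified transcripts with Salmon (0.12 in the submitters' processing notes) on Ensembl GRCm38 and used tximport to aggregate transcripts per gene, and the deposited values are estimated counts with no normalization. The notes name the build GRCh38, but the gene identifiers are of mouse. Only 0.0436% of the values above 0 were whole within 1e-06, and the scaling in tximport is not given in the sources used here. Estimated counts were rounded, and TPM was approximated from mean GENCODE M21 transcript lengths. The 240 genes without a symbol there were left out.

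With the filter, tool and threshold of the study, genes for which more than 3 samples had a TPM under 1 were removed and limma-voom (limma 3.58.1, edgeR 4.0.16 for TMM, R 4.3.3) was run at a Benjamini-Hochberg adjusted p below 0.001. Which samples shared a fit is not given in the sources used here. Fits were run on the 8 samples of each line, on the 8 vehicle samples, and on all 16 for the interaction, where a gene was removed only if low in both lines. With CIX in 4T1 the fit on 8 samples called 1086 genes and a common fit of all 16 called 2677. TMM-scaled CPM over 16 samples is printed. On simulated data with 200 genes changed 4-fold, 93.5% were recovered in 4T1 (11916 genes) and 93.5% in 67NR (11664 genes), 98.5% in the interaction (12429 genes) and 96% between the lines (12352 genes), with at most 1 unchanged gene called. The members, the pathway lists and the markers were chosen with earlier results of these data known. All members are named. Of the lists, up to 3 called genes with the largest change per list, direction and comparison are named, and for Hmox1 the 5 genes most like it. Of the listed symbols, Tf was matched as Trf by a RefSeq synonym. Alternatives were edgeR's quasi-likelihood test, DESeq2 1.42.0 (Wald), DESeq2 size factors, library size only, no TPM filter, a common fit of 16 samples, limma on log2(TPM + 1), a threshold of 0.05, summed ferritin counts, each sample left out and, chosen after seeing the data, a block by sets of consecutive sample numbers.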

Additional observations from a re-analysis of the deposited data

Results flagged for a closer look

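In 162 groups of 4 samples of the members and the named pathway genes that were not at 0 throughout, 10 held a sample far from the other 3 by Dixon's ratio at the 95% level, where chance would give about 8.1. Among the members, Slc40a1 in 4T1 vehicle sample 11 stood at 22.1 CPM against 0.412 to 1.52 CPM in the other samples. Slc48a1 in 67NR vehicle sample 13 stood at 103 CPM against 133 to 134 CPM, Fech in 67NR CIX sample 2 at 54.7 against 46.5 to 47.5 CPM, and Alas1 in 4T1 vehicle sample 11 at 105 against 91.9 to 94.2 CPM. Among pathway genes the samples were Ciao1 in 67NR vehicle sample 9 at 53.0 CPM, Clpx in 4T1 vehicle sample 3 at 70.8 CPM, Cp in 67NR vehicle sample 13 at 200.0 CPM, Cpox in 67NR vehicle sample 5 at 27.7 CPM, Pgrmc1 in 67NR CIX sample 2 at 57.6 CPM and Steap1 in 4T1 CIX sample 4 at 63.8 CPM.

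The CIX response differed between 4T1 and 67NR by the interaction term (limma-voom) for 4 of 10 members and 6 of 69 tested pathway genes. Over all 12609 genes tested the share was 7.86%. For the members these differences describe responses that were known when the genes were listed. The pathway lists were also chosen with earlier results of these data known. The log2 difference was -2.68 for Hmox1, 1.02 for Slc48a1, 1.34 for Ftl1 and -0.92 for Alas1, whose call held in 8 of 16 fits without 1 sample. It was 2.65 for Cpox, 1.25 for Lyrm4, 2.34 for Nqo1, 0.68 for Pgrmc1, 0.85 for Slc25a28 and -6.11 for Slc39a8. Without 1 sample the calls of Cpox, Nqo1 and Slc39a8 held in all 16 fits. Those of Slc25a28, Lyrm4 and Pgrmc1 held in 7, 2 and 1. In 4T1 Slc39a8 missed the level filter through its CIX samples, with a mean of 1.61 TPM with vehicle and 0.0453 TPM with CIX.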

How the results depend on the processing

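No value of a member, nor of a pathway gene in the comparison it was named for, changed sign under the alternatives run, and 1256 of 1446 such values stayed on their side of the threshold, with 165 lost and 25 gained calls. In 4T1 with CIX, the members called numbered 2 in the fit reported, 6 with DESeq2, 6 in the common fit of 16 samples and 7 at a threshold of 0.05. The pathway genes called numbered 6, 25, 24 and 33, and all genes 1086, 3095, 2677 and 4979 of 11660. In 67NR, members called numbered 1, against 2 with DESeq2, 2 in the common fit and 3 at 0.05, and pathway genes 1, against 10 with DESeq2 and 17 at 0.05. Over all 11558 genes there 45 were called, against 1040 with DESeq2, 151 in the common fit and 2055 at 0.05. For the difference of the responses, pathway genes called numbered 6, against 11 with DESeq2 and 25 at 0.05 (all genes 991, 1977 and 3699), and between the untreated lines 27, against 49 at 0.05 (all genes 4418 and 7442). The cause was not tested, except that 0.05 is the looser threshold. Leaving out 1 sample gave 2 to 3 members and 2 to 7 pathway genes in 4T1, 0 to 1 and 0 to 1 in 67NR, 3 to 4 and 3 to 7 for the difference, and 5 to 7 and 23 to 33 between the lines. The pathway count in 4T1 was 2 without vehicle sample 7 or 15 and 3 without vehicle sample 11 or CIX sample 8 or 16. In 67NR the member count was 0 without sample 1, 5, 6, 9, 10, 13 or 14, and the pathway count was 0 without any of these but sample 13. The pathway count for the difference was 3 without sample 1, 5, 6, 8, 9 or 10. Counts over all genes are not given for the fits without 1 sample. A lower count there is therefore not read as particular to the members or pathway genes. Summing ferritin counts with sharing genes changed no call. No groups share a sample number, but the numbers 1 to 16 form 4 sets of consecutive numbers with 1 sample of each group, and a replicate block by set was added after seeing the data. Nothing in the labels says that a set was handled together. Deviations from the group means correlated within sets at 0.06 to 0.39 between vehicle and CIX in 4T1, at -0.06 to 0.07 in 67NR, at -0.26 to 0.19 between the vehicle samples of both lines and at 0.01 to 0.11 between their CIX samples. Of 8 samples each, 6, 4, 2 and 5 correlated best with their own set. With the block, members called numbered 4 in 4T1, 0 in 67NR, 5 for the difference and 6 between the lines, pathway genes 7, 0, 6 and 17, and all genes 1141, 0, 1092 and 3008. The SE of the Fth1 response in 4T1 was 0.06 with the block and 0.24 without, and Fech between the untreated lines lost its call. At a depth of 21715700 to 29450629 counts, levels under 3 counts, such as Slc40a1 in 67NR, could not be told from 0.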
